A study of Saccharomyces cerevisiae with 4 samples.

Results

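Snf1 is the yeast kinase that switches on genes for using carbon sources other than glucose, and Glc7-Reg1 is the phosphatase that holds it inactive while glucose is plentiful. The 10 genes described here encode both: REG1, REG2, GLC7, SNF1, SNF4, SIP1, SIP2, GAL83, SAK1 and TOS3. They were chosen by name and not by a cut on their values, though earlier results of these data were known. All 10 have a row among the 6212 rows of the deposited table of log ratios. RNA of the budding yeast Saccharomyces cerevisiae, strain DBY4741 per the labels, was compared on 4 spotted 2-colour arrays, 2 for each of 2 comparisons. In the first, a reg1::KanMX mutant, in which a drug resistance cassette disrupts REG1, was set against wild type, both untreated in YPD rich medium at 28 °C. In the second, reg1::KanMX cells given 16 mM KOH for 10 min, which brought the medium to about pH 8.0, were set against reg1::KanMX cells given 16 mM KCl for 10 min, in medium that began near pH 5.5. Both RNAs of the second comparison therefore come from cells with a disrupted REG1, and no wild-type cells under alkali were analysed here.

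Snf1 works as a complex of 3 kinds of subunit. SNF1 encodes the catalytic subunit, SNF4 the activating gamma subunit, and SIP1, SIP2 and GAL83 encode alternative beta subunits that hold the complex together and direct it to different places in the cell. Upstream kinases, among them those encoded by SAK1 and TOS3, phosphorylate Snf1 and so activate it. GLC7 encodes the catalytic subunit of a type 1 protein phosphatase, which many regulatory subunits steer to different substrates. Reg1 steers it to Snf1, and cells without Reg1 keep Snf1 active in glucose. Reg2 is a relative of Reg1 that also binds Glc7. Snf1 is known as well to be needed for growth at alkaline pH.

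Each array measured between 4746 and 5190 rows, and the dyes were swapped between experiments 1 and 2 of each comparison. Across genes the arrays correlated at r = 0.591 in the mutant comparison (4765 genes) and at r = 0.955 in the alkali comparison (4584 genes). The REG1 ratio sets the first direction as reg1 over wild type. The second is read as KOH over KCl, which the sample titles and the listing of the channels make likely but do not settle. Were it KCl over KOH, the sign of every alkali ratio below would turn, and each higher or lower, rise or fall and order under KOH with it. Each mean was tested against 0 with limma over all genes and called at a Benjamini-Hochberg adjusted p under 0.05. Nothing in the labels shows that the repeat experiments used separate cultures, so p-values measure only the spread between these arrays, which may be technical. Cells were collected by centrifugation for the mutant comparison and by rapid filtration for the alkali comparison.

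In the mutant the ratio was lower for REG1 and, read at the row of its name, higher for REG2. REG1 (YDR028C) had log2 ratios of -1.10 in experiment 1 and -0.96 in experiment 2, of 1 sign on both arrays. That sign served to set the direction of the comparison and is no separate result. Its mean was -1.03 ± 0.10 (SD, n = 2), a ratio 2.04-fold lower than in wild type (adjusted p = 0.0313, limma). Only 0.986% of the genes tested had a lower mean. The labels do not say which stretch of REG1 the spot covers. The mutant RNA still gave 0.47 and 0.51 of the wild-type signal, and the source of that signal was not tested. With a spread estimated from only the mutant arrays, or with either alkali array left out, which comes to the same for this gene, the call was lost (adjusted p = 0.0686). On the alkali arrays, where both RNAs come from reg1 cells, the REG1 spot gave no value in either experiment.

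REG2 (YBR050C) had log2 ratios of 1.58 and 1.47 in reg1 cells over wild type, so both arrays put it well above 0. The mean of 1.53 ± 0.07 (SD, n = 2) is 2.88-fold and ranked 76 from the top of 4765 genes (adjusted p = 0.00638, limma). Under KOH it had 1.06 and 0.75, a further increase over KCl within the mutant. That mean was 0.91 ± 0.22 (SD, n = 2), or 1.87-fold (adjusted p = 0.00451, limma), and 80.7% of genes had a lower one. Without KOH experiment 1 the increase under alkali no longer passed (0.75, adjusted p = 0.09997).

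The REG2 values carry a doubt that those of the other 9 genes do not. The columns of the comparisons are out of register in parts of the table, which shows in where values are missing. In the 200 rows around each of the other 9 genes, the number of mutant arrays with a value correlated with the number of alkali arrays with a value at r = 0.689 to 0.819 when read in the same row, and at most at r = 0.157 when the mutant columns were read 1 row above. Around REG2 the same measures were 0.385 and 0.522. Its window takes in rows of a displaced stretch above it, so both values mix displaced and undisplaced rows. They cannot show which reading applies at the row of REG2 itself. REG2 is the third row below a stretch, YAL067C to YBR047W, in which the columns are displaced by 1 row and which was left out. Missing values place the displacement clearly up to YBR044C, 6 rows above REG2, and its absence clearly from YBR070C, 20 rows below. Between these, 4 rows differ between the readings, and they split 2 against 2. They are 2 neighbouring pairs, YBR047W with YBR048W and YBR051W with YBR052C, each with 1 row for each reading. A single mutant row that lacks values gives such a pair, so the split could not decide. The same pair occurs at YBR076W and YBR077C, below the rows where the displacement is clearly absent. YBR047W is also the last row of the stretch left out. If the displacement reached REG2 and the mutant columns were at fault, the REG2 ratios in the mutant would be 0.03 and 0.08, with no call (adjusted p = 0.86). If the alkali columns were at fault, the mutant ratios would stand and those under KOH would be 1.57 and 1.54. Both readings were added after seeing the data, and which applies was not settled.

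**Figure D1:**
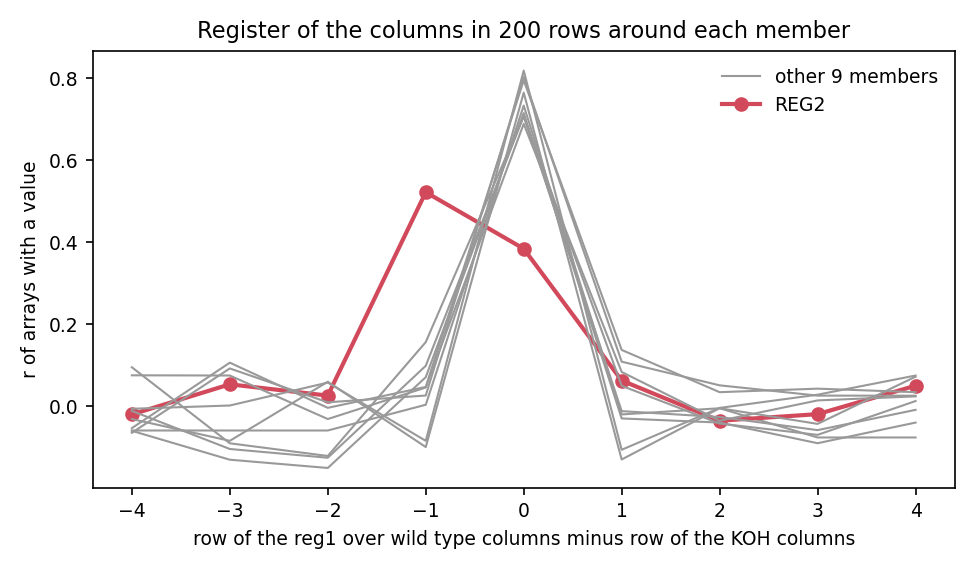
Correlation of the number of arrays with a value between the columns of the mutant and alkali comparisons, in 200 rows around each gene, against the row displacement (x axis, rows). For 9 genes (grey) the peak is at 0, at r = 0.689 to 0.819, while REG2 (red) has 0.522 at -1 and 0.385 at 0. The REG2 window takes in rows of the displaced stretch above it.

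GLC7, the phosphatase catalytic subunit, passed in neither comparison. Its log2 ratios were 0.19 and 0.32 in reg1 over wild type, both slightly above 0, with a mean of 0.25 and a 95% interval of -0.12 to 0.62 (adjusted p = 0.352, limma). Under KOH it had -0.27 and -0.07, with a mean of -0.17 and an interval of -0.54 to 0.20 (adjusted p = 0.36, limma). Both intervals take in 0. Neither reaches the size of the REG2 change in the mutant as read at the row of its name, a reading that is in doubt.

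Among the genes of the Snf1 complex, none passed in the mutant, and SIP1 and SIP2 rose under alkali. SNF1 (YDR477W), the catalytic subunit gene, had no value on any of the 4 arrays, so its response is not known here. SNF4 had log2 ratios of -0.51 and 0.29 in reg1 over wild type, below 0 on one array and above it on the other. Under KOH it had 0.02 and 0.05, close to 0 on both arrays. Its mean there was 0.04, but the interval of -0.51 to 0.58 is the widest of the 8 genes tested, since the spread is shared with the mutant arrays.

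SIP1 (YDR422C), whose product is found at the vacuole in low glucose, had log2 ratios of 1.41 and 1.23 after KOH over KCl. It lay farthest from 0 of the 8 genes tested, at 1.32 ± 0.13 (SD, n = 2), or 2.50-fold (adjusted p = 0.00122, limma). It kept its call in each of the 13 alternative fits, and 87.7% of genes had a lower mean. Those fits are not all separate checks. The fit with the alkali arrays alone and those without either mutant array are the same here. In reg1 over wild type SIP1 had 0.08 and -0.20, on either side of 0, with a mean of -0.06 and an interval of -0.45 to 0.33.

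SIP2 (YGL208W), the beta subunit gene whose product stays mainly in the cytoplasm, had 0.84 and 0.82 after KOH over KCl, nearly the same on both arrays. The mean was 0.83 ± 0.01 (SD, n = 2), or 1.78-fold (adjusted p = 0.00426, limma). With 1 alkali array left out the value barely moved, but the call was lost (adjusted p = 0.081 without experiment 1 and 0.0695 without experiment 2). In reg1 over wild type SIP2 had 0.37 and 0.31, a mean of 0.34 with an interval of -0.01 to 0.69 that takes in 0 by a narrow margin (adjusted p = 0.209, limma).

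GAL83 (YER027C), the third beta subunit gene, whose product takes the kinase to the nucleus, had 0.28 and 0.37 after KOH over KCl. The values lay above 0 on both arrays, with a mean of 0.33 and an interval of -0.14 to 0.79 (adjusted p = 0.179, limma). With the spread taken from the alkali arrays alone, which is also what leaving out either mutant array gives, it passed (adjusted p = 0.0483). In reg1 over wild type it had -0.33 and 0.25, opposite in sign. On each alkali array the order was SIP1, SIP2, GAL83. SIP1 exceeded GAL83 there by 1.13 and 0.86 log2 units, SIP1 exceeded SIP2 by 0.57 and 0.41, and SIP2 exceeded GAL83 by 0.56 and 0.45. These differences between beta subunit genes were not tested.

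Of the upstream kinase genes, SAK1 rose under alkali and TOS3 did not pass. SAK1 (YER129W), which encodes the main Snf1-activating kinase in glucose-starved cells, had log2 ratios of 0.94 and 0.75 after KOH over KCl. It rose by 0.85 ± 0.13 (SD, n = 2), or 1.80-fold (adjusted p = 0.00539, limma). The call was lost without experiment 1 (0.75, adjusted p = 0.106), without experiment 2 (0.94, adjusted p = 0.0568) and after scaling the arrays to 1 common spread (0.57, adjusted p = 0.0656). TOS3 (YGL179C) had -0.24 and -0.12 there, slightly below 0 on both arrays, with a mean of -0.18 and an interval of -0.63 to 0.27. SAK1 exceeded TOS3 by 1.18 and 0.87 log2 units on the alkali arrays, a difference that was not tested. In the mutant neither passed. SAK1 had 0.04 and -0.20 in reg1 over wild type, and TOS3 had 0.07 and -0.47.

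**Figure D2:**
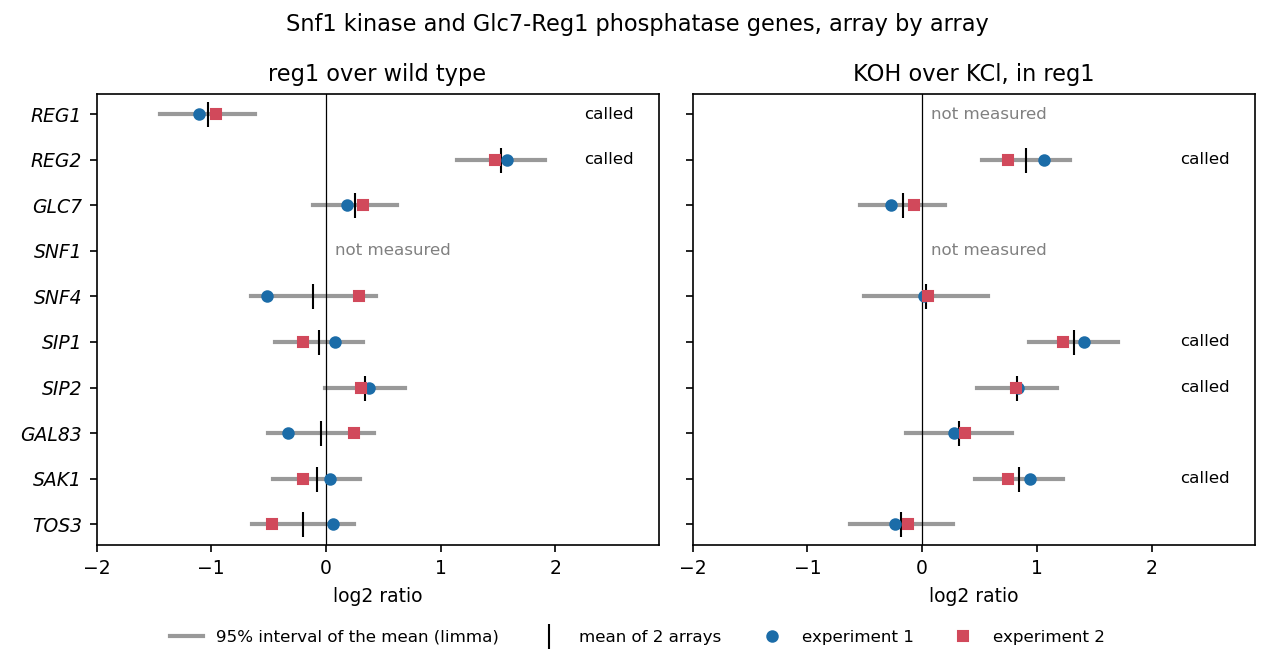
Log2 ratios (x axis) of the 10 genes on each array, with reg1 over wild type on the left and KOH over KCl in reg1 cells on the right. Circles are experiment 1, squares experiment 2, ticks the mean and grey bars limma's 95% interval. REG1 and REG2 were called in the mutant, and REG2, SIP1, SIP2 and SAK1 under KOH.

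In the mutant comparison 2 of 9 genes tested were called, REG2 higher and REG1 lower, against 7.16% of all genes (5.2% higher and 1.95% lower). One of these is the disrupted gene itself and the other is the gene whose row is in doubt. The remaining 7 had means between -0.20 and 0.34. The arrays disagreed in sign for 5 of the 9 genes tested, all among these 7, and for 37.8% of all genes. Experiment 1 had reg1 RNA in Cy5 and experiment 2 had it in Cy3, so dye and experiment cannot be told apart in these disagreements. Under KOH 4 of 8 genes tested were called, all of them higher if the ratio is KOH over KCl and all of them lower if it is not. Of all genes 61.8% were called there, 29.1% higher and 32.7% lower, so a share of 50% called is no larger than that of the whole table. The median mean over the 8 genes was 0.58, against -0.09 over all genes. None of the 8 had opposite signs on the alkali arrays, where 8.27% of all genes did. The comparisons share no arrays, but reg1 cells are in both.

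**Figure D3:**
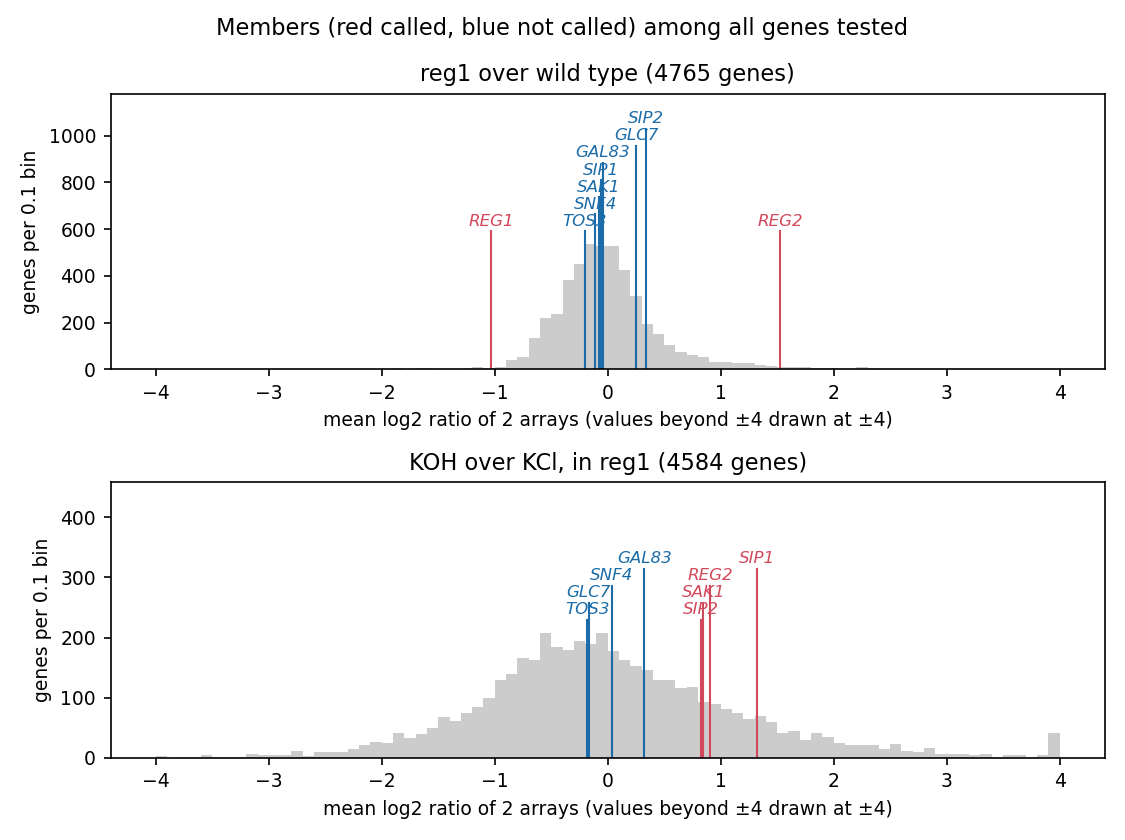
Histograms of the mean log2 ratio over all genes tested (y axis, genes per bin), for reg1 over wild type (top, 4765 genes) and KOH over KCl in reg1 cells (bottom, 4584 genes), with lines at the genes described. In the mutant, REG1 is at -1.03, REG2 at 1.53 as read at the row of its name, and the other 7 lie between -0.20 and 0.34. Under KOH SIP1 is at 1.32.

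Other genes of the pathway were taken from 3 lists. In the lower part of the table (YKL011C to YPR204W) their mutant values were read 2 rows further down, a displacement taken as given. Among 16 genes for other regulatory subunits of Glc7, 3 lie in the stretch left out. Of the 12 tested under KOH, 8 rose and none fell (the reverse, were the direction turned). That is 66.7% called beside 61.8% of all genes, of which 29.1% were higher and 32.7% lower. The list median was 1.19 against -0.09. The largest increases were those of the glycogen-targeting subunit genes GAC1 (3.17 and 3.15), GIP2 (3.06 and 2.70) and PIG2 (2.00 and 1.63), and of GIP3 (2.16 and 1.97). PIG1, also a glycogen-targeting subunit gene, had 0.23 and 0.32 and was not called. GAC1 directs Glc7 to glycogen synthase, and its mean was 8.94-fold above KCl (adjusted p = 1.4e-04, limma). GIP4 (1.56), AFR1 (1.21), BNI4 (1.18) and SCD5 (0.99) were the others called. With either alkali array left out, GIP4 has no test. SCD5 was lost without experiment 1 (adjusted p = 0.0519). SDS22 (0.02), YPI1 (-0.11) and GLC8 (-0.02), which act on the phosphatase in general, were all close to 0 and not called.

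In the mutant 2 of 11 of these genes rose and none fell, 18.2% called beside 7.16% of all genes (5.2% higher), and the list median was 0.24 (all genes -0.05). They were BNI4, which places Glc7 at the bud neck, with 1.48 and 1.22, and GAC1, with 1.22 and 1.11. Both rest on the reading 2 rows further down. At its own row GAC1 would have 0.12 with no call, and BNI4 would have -0.73 and be called lower (adjusted p = 0.0372, limma). PIG2 (-0.51) was lowest and was not called. With arrays scaled to the same spread, 4 of the 11 were called.

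Of 13 other regulators and partners of Snf1, 3 of 11 tested rose under KOH and 4 fell, 63.6% called beside 61.8% of all genes, with a median of -0.13. SIP5, whose product binds both Reg1 and Snf1, had 1.84 and 1.64, and NRG1, a repressor that binds Snf1, had 1.75 and 1.57. The third, SSB1, had 1.19 and 1.06, while its near-identical copy SSB2, a ribosome-bound chaperone gene likewise, had -0.94 and -0.60. Near-identical copies can share signal between spots, so the values of both are uncertain. ELM1, the third Snf1-activating kinase gene, had -1.31 and -1.15, lower on both arrays where SAK1 was higher. STD1, a glucose-signalling gene, had -1.52 and -1.37, and BMH1, a 14-3-3 protein gene, -0.69 and -0.67. STD1, BMH1 and SSB2 were lost when either alkali array was left out, with 4 of the 7 calls then standing. Those 3 and ELM1 (adjusted p = 0.0512) were also lost with arrays scaled to the same spread.

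In the mutant 1 of the 13 was called, 7.69% beside 7.16% of all genes, and the median was 0.11. HXK2, the hexokinase gene whose product takes part in glucose repression, had 1.65 and 1.02 (adjusted p = 0.0227, limma). The call was lost without mutant experiment 1 (1.02, adjusted p = 0.0661), and with the mutant arrays alone or without either alkali array (adjusted p = 0.0546). ELM1, STD1 and the 14-3-3 genes were not called.

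Among 11 genes for proteins that Snf1 signalling acts on, most of them transcription factors, 3 of 9 tested rose in the mutant and none fell, 33.3% called beside 7.16% of all genes (5.2% higher), with a median of 0.35. ADR1, an activator of glucose-repressed genes, had 2.75 on both arrays, 6.72-fold above wild type (adjusted p = 0.00137, limma). CAT8, an activator of gluconeogenic genes, had 1.27 and 1.51, but it was read 2 rows further down and at its own row would have -0.42 with no call. MIG1, the repressor that Snf1 inactivates, had 1.21 and 1.45. MIG3 had -1.51 and -0.70, lower on both arrays but not called (adjusted p = 0.0726, limma). MIG2 had 0.53 and 1.15 and was not called either (adjusted p = 0.0624, limma), though it passed in 5 of the alternative fits, among them that without mutant experiment 1.

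Under KOH 4 of 8 of these rose and 2 fell, 75% called beside 61.8% of all genes (29.1% higher and 32.7% lower), with a median of 0.85. SIP4, an activator that binds the Snf1 complex, had 5.02 and 5.10, or 33.4-fold (adjusted p = 1.4e-04, limma), the value farthest from 0 in the 3 lists. ADR1 had 3.23 and 3.05, ACC1, the acetyl-CoA carboxylase gene, 2.20 and 2.23, and GLN3, a nitrogen-response activator gene, 1.44 and 1.47. The repressor genes MIG2 and MIG1 were lower on both arrays, with -1.26 and -1.12 for MIG2 and -0.69 and -0.59 for MIG1. MIG1 was lost without either alkali array (adjusted p = 0.175 without experiment 1 and 0.118 without experiment 2) and MIG2 without experiment 1 (0.0606), and both with arrays scaled to the same spread. Without experiment 1, 3 of these 6 calls stood. SIP4, not measured on the mutant arrays, then has no test.

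**Figure D4:**
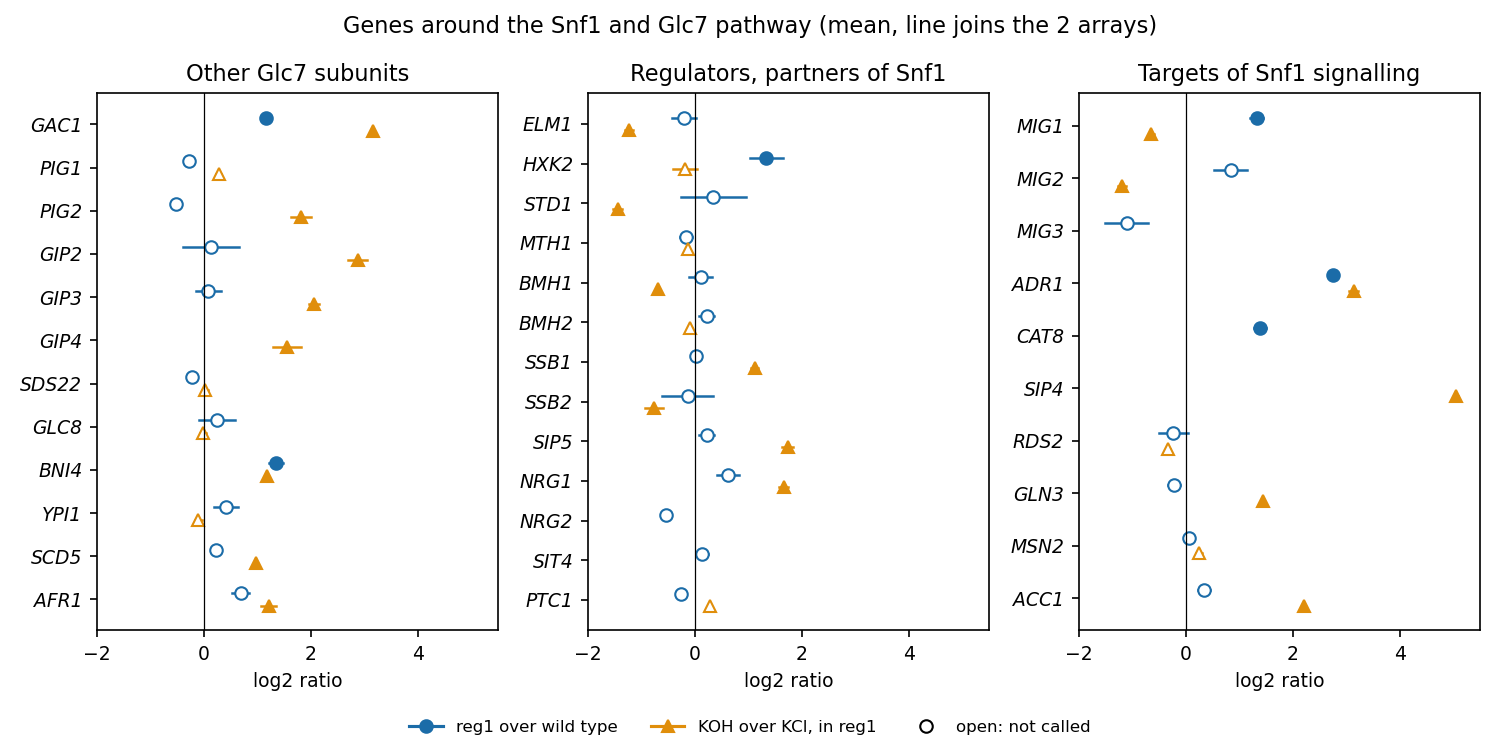
Mean log2 ratio (x axis) of the listed genes tested, in 3 panels, for reg1 over wild type (circles) and KOH over KCl in reg1 cells (triangles). Lines join the 2 arrays and open symbols were not called. GAC1, GIP2 and SIP4 reach 3.16, 2.88 and 5.06 under KOH.

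The genes most like REG2 and SIP1 were found by Euclidean distance over the log2 ratios of the 4 arrays, among 4315 genes measured on all of them. REG2 and SIP1 were the members with a mean of at least 1 in a comparison and a value on every array. Nearest to REG2, read at the row of its name, were YHR180W, IZH3 and GCY1, at distances of 0.41, 0.41 and 0.44. The row of REG2 is in doubt, and its neighbours under the other readings were not sought. IZH3, a gene of the membrane protein family linked to zinc, had 1.74 and 1.25 in reg1 over wild type and 0.82 and 0.94 after KOH over KCl. GCY1, an aldo-keto reductase gene, had 1.31 and 1.58 in the mutant and 0.74 and 0.84 under KOH. The mutant values of both were read 2 rows further down. SIP1 had closer neighbours, SSE2, ACK1 and BEM3, at distances of 0.16, 0.18 and 0.19. The distance of BEM3 likewise rests on mutant values read 2 rows further down. SSE2, a chaperone gene, had -0.03 and -0.29 in the mutant and 1.38 and 1.16 under KOH.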

How the data were processed

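The values the authors deposited are log ratios of the 2 dyes for each array, taken as log2, since the highest, 9.1, would be too large a ratio on other bases. Per the labels, spots under 120 µm across or under 100 units in both dyes were left out. Scanning, background correction and normalization are steps not given in the sources used here. Per array, 16.5% to 23.6% of rows lacked a value. Of the 6212 rows, 5662 matched a locus tag of assembly R64, which gave the symbols. Rows YAL067C to YBR047W were left out, and mutant values of YKL011C to YPR204W were read 2 rows further down. Means were tested with limma 3.58.1 (R 4.3.3), all 4 arrays in 1 fit with 2 residual degrees of freedom for a gene on every array and a prior of 3.68, Benjamini-Hochberg adjusted over all genes of a comparison. The 1 fit gives both comparisons the same spread for a gene, although their noise differs. The median SD between arrays was 0.228 in the mutant and 0.127 under KOH. With its own arrays alone, the mutant comparison had 153 genes called instead of 341, and the KOH comparison 3275 instead of 2832. The fit was also run on simulated data with equal spread in both comparisons, so the simulation did not test the shared spread. REG1 was measured on 2 arrays, so its spread rests on 1 difference and the prior. All members and, for each list, up to 6 called genes per direction are named, with further list genes, called or not, chosen after their values were seen. The members and lists were chosen with earlier results of these data known, so no pattern in them is independent support.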

Additional observations from a re-analysis of the deposited data

How the results depend on the processing

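Among the 10 genes, no called value changed sign. Most alternative fits leave a mean as it was or drop 1 of 2 arrays of the same sign, so they could not have changed it. In the mutant, 1 gene instead of 2 was called with the 20 rows beside each change of register left out (REG2 is then not tested), with the mutant arrays alone (REG1 lost), and with REG2 read 1 row above (added after seeing the data). It was also 1 with a dye term or with a replicate block (experiment number as a term), where REG1 has no residual degree of freedom and so no test. Leaving out each array in turn gave 1 in every case in the mutant, and from 1 to 5 under KOH, where 4 were called. Under KOH the replicate block kept all 4. It moved the list calls over both comparisons to 25, from 27, and those over all genes to 363 and 2669, from 341 and 2832. Same-numbered arrays deviated together at r = -0.09. The tested RNA carried opposite dyes on same-numbered arrays of the comparisons, so this value cannot show whether those arrays were paired. With undisplaced rows alone, there were 14 list calls, since fewer list genes are tested there, and with an array left out there were 18 to 27, not all of them the same genes. Over all genes, the mutant count was 153 with its arrays alone, 678 with a dye term, 601 after scaling to the same spread, 212 without mutant experiment 2, and 167 in undisplaced rows. The KOH count was 1238 after scaling, 1182 and 1334 without experiment 1 or 2, and 1401 in undisplaced rows. The signal of single spots over background is unknown, and the number of arrays limits the precision.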
